A study of Mus musculus with 16 samples.

Results

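Heterochromatin Protein 1 alpha (HP1α, encoded by Cbx5) was the protein whose loss was examined here, in memory CD4+ T cells of the mouse spleen, as 4 HP1α KO samples against 4 samples of WT littermates, 8 of the 16 samples of the series. The members were taken by their labels alone, and no measured value entered the choice. HP1 proteins bind histone H3 methylated at lysine 9 and help to keep heterochromatin compact and its genes silent. Mammals have 3 of them, HP1α, HP1β (Cbx1) and HP1γ (Cbx3). Memory T cells have met their antigen before, persist at rest, and recall effector genes such as Ifng quickly.

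Mice carried a floxed Hp1a allele that had been excised with CMV-cre, which acts in every tissue, and Hp1a+/- mice were then crossed to give Hp1a-/- (KO) and Hp1a+/+ (WT) animals in the same litters. The KO is therefore constitutive, and an effect within T cells cannot be told apart from one through other cells of the animal. The background was mixed (129/Sv and C57BL/6), and the animals were sex-matched and 6 to 12 weeks old. The study's reporting summary states that male mice were used for its sequencing. The animals received no treatment in the study's account of this experiment. CD4+ cells were enriched and memory cells were sorted by surface markers, among them CD25low/- and CD44high. A treatment label spoke of transferred cells and carried the same text for KO samples 3 and 4 and all WT samples, but another for KO samples 1 and 2. That label did not match the study's account and set no groups. The other 8 samples of the series are HP1γ KO cells and their own littermates, whose floxed allele is deleted by Cd4-cre in T cells. Nothing in the sources says whether a sample was 1 animal or a pool, so p-values measure the spread between these samples.

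The 8 samples held between 27515032 and 39554647 estimated counts, and between 20749 and 21489 genes had a count above 0 in each. Levels are given as CPM, the usual read count scaled to library size, after TMM normalization, and 14881 genes passed the filter on low counts. The cells had the RNA of the sorted population. Cd4, the co-receptor of the sorted cells, stood between 1129 and 1252 CPM in the 8 samples. Cd44, the high marker of the gate, stood between 260 and 303 CPM. Il2ra (CD25), the low marker of the gate, stood between 26.4 and 34.4 CPM. The first principal component of the 8403 genes at 10 CPM or more took up 40.7% of the variance and set KO 3 (score 16.1) and WT 3 (11.1) at one end and WT 2 (-15.5) at the other. Globin, Igkc and heat-shock genes were among the leading genes at the end of KO 3 and WT 3. These 3 samples stood apart within their groups, and counts without KO 3 and WT 3 are given beside the results they touch.

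The targeted gene was lower in every KO sample. Cbx5 lies at chr15:103099505-103148419 on the minus strand of GRCm39. It stood at 29.0, 28, 23.2 and 29.2 CPM in KO 1 to 4 and at 38.2, 54.6, 35.9 and 34.2 CPM in WT 1 to 4. The groups did not overlap, and the highest value was that of WT 2. The means were 27.4 ± 2.83 and 40.7 ± 9.37 CPM (SD, n = 4). The log2 fold change was -0.58, with a standard error of 0.14 and a 95% interval from -0.90 to -0.25. The exact two-sided permutation p was 0.0286, the smallest that 4 against 4 samples can give, and the adjusted p of edgeR's quasi-likelihood test was 0.946. Without WT 2 the log2 fold change was -0.40. Reads from a gene with a deleted part can still be counted over the rest of it, and the deleted exons are not given in the sources used here, so that these counts check the label in part only.

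The length that Salmon assigned to Cbx5 was higher in KO 1, 2 and 3 than in any WT sample. Salmon assigns reads to transcripts, and the ratio of a gene's counts to its TPM gives the length it assigned to the gene. Relative to the median gene of the same library, this length was 4.21, 4.35, 4.4 and 3.13 in KO 1 to 4 and 3.36, 3.12, 2.93 and 3.06 in WT 1 to 4. KO 1, 2 and 3 lay above all WT samples and KO 4 lay within them (exact permutation p = 0.0571, two-sided). Of 13336 genes with at least 10 counts in every sample, 245 had a larger difference in length between the groups. The TPM of Cbx5, which divide by this length, averaged 5.33 in KO and 9.84 in WT. The assigned length does not show which part of the gene was read, and its link to the deletion was not tested.

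The levels of the other 2 HP1 genes overlapped between the groups. Cbx1 averaged 29.6 ± 3.77 CPM in KO and 31.0 ± 3.86 CPM in WT (SD, n = 4), and its interval ran from 20% lower to 13.5% higher in KO. Cbx3 averaged 80.8 ± 8.55 CPM in KO and 89.3 ± 16.2 CPM in WT, and its interval ran from 25% lower to 9.20% higher. Per unit of length, the KO samples averaged 28.1 TPM for Cbx1 and 75.7 TPM for Cbx3, so that Cbx3 was the most abundant HP1 transcript and Cbx5 the least.

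**Figure D1:**
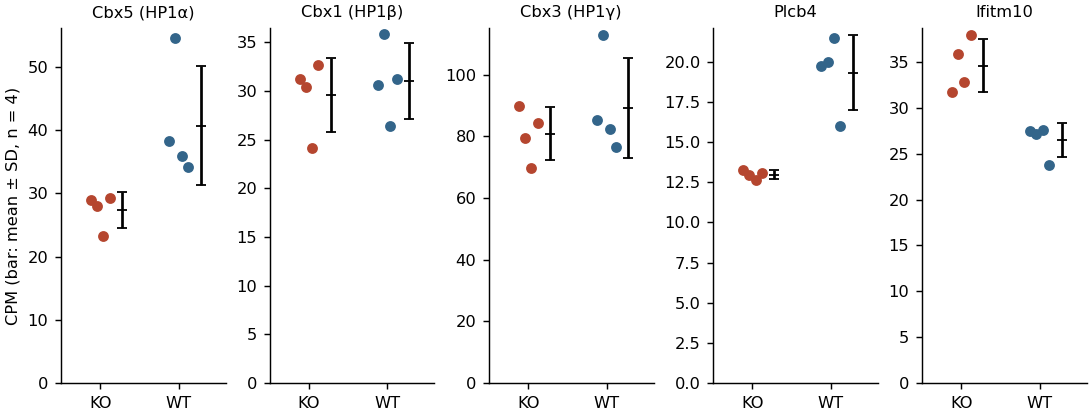
Level in CPM (vertical axis, each panel on its own scale from 0) of the 3 HP1 genes, Plcb4 and Ifitm10 in the 4 HP1α KO and 4 WT samples, with the mean ± SD beside the points. The Cbx5 points of KO, 23.2 to 29.2 CPM, lie below those of WT, while the Cbx1 and Cbx3 points overlap.

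No gene passed an adjusted p under 0.05 in edgeR (0% of 14881 genes tested). At an unadjusted p under 0.05 stood 635 of them, or 4.27%. Of these, 249 were higher in KO (1.67% of all genes) and 386 lower (2.59%). Limma on log2(TPM + 1) turned this balance round, with 391 genes higher and 265 lower, so that the split between directions is not read as a result. Without KO 3 and WT 3, 196 were higher and 409 lower. DESeq2 called 8 genes at an adjusted p under 0.05 (0.0538%), and limma on log2(TPM + 1) called 1 (Gm10358, named after its values were seen). In 230 genes (1.55%) all KO samples lay above all WT samples, and in 219 genes (1.47%) all lay below. The HP1γ line, measured with the same number of samples, had 49 genes at an adjusted p under 0.05 (0.327%) and 1784 at an unadjusted p under 0.05 (11.9%). The median coefficient of biological variation was 0.136 in the HP1α line and 0.148 in the HP1γ line. In a fit of all 16 samples, the effect of KO differed between the lines in 8 of 15776 genes at an adjusted p under 0.05 (0.0507%). The 2 lines differ in the Cre that was used, which cannot be told apart from the isoform.

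**Figure D2:**
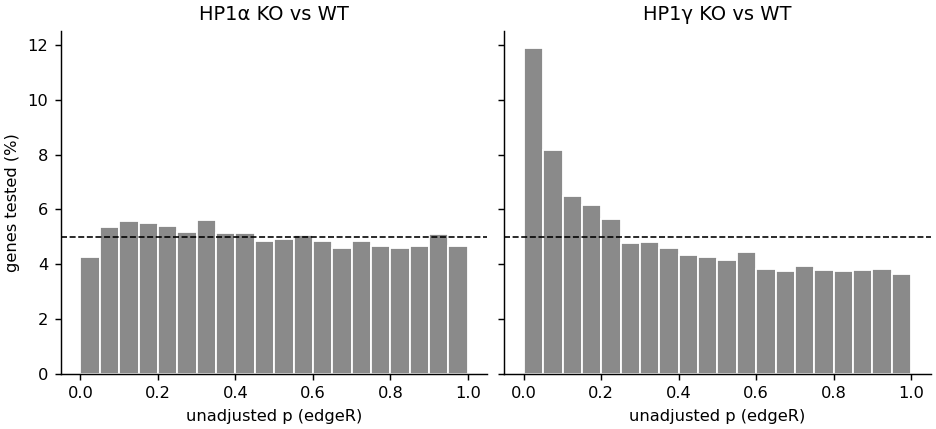
Share of the genes tested (vertical axis, %) in each 0.05-wide class of unadjusted edgeR p (horizontal axis) for HP1α KO against WT and HP1γ KO against WT, with the dashed line at 5%. The first class holds 4.27% of genes in the HP1α line and 11.9% in the HP1γ line.

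The intervals set the size of the differences these samples leave possible. The whole 95% interval lay within a 2-fold change for 12531 genes (84.2%), and within a 1.5-fold change for 9872 genes (66.3%). In the HP1γ line 81.1% of genes had an interval within a 2-fold change. The limit followed the level of the gene. At 100 CPM or more, 2219 of 2231 genes (99.5%) were bounded within 2-fold and 97.9% within 1.5-fold, with a median standard error of 0.07 on the log2 scale. Between 10 and 100 CPM the shares were 99.3% and 95.7% of 6172 genes. Between 1 and 10 CPM they were 84.4% and 44.0% of 4024 genes. Under 1 CPM they were 32.1% and 0.326% of 2454 genes, with a median standard error of 0.38, so that for 1666 of these genes the interval reached beyond a 2-fold change.

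The median absolute log2 fold change was 0.06 at 100 CPM or more, 0.06 between 10 and 100 CPM, 0.15 between 1 and 10 CPM and 0.27 under 1 CPM, in each class below the median standard error. The share with an unadjusted p under 0.05 was 4.35%, 3.95%, 3.73% and 5.87% in that order of levels. Of the 8403 genes at 10 CPM or more, 7 had a log2 fold change beyond 1 in either direction. The median distance between 2 samples, as the root mean square difference of log2 CPM over these genes, was 0.237 for the 16 pairs of a KO and a WT sample, 0.237 for the 6 pairs of KO samples and 0.247 for the 6 pairs of WT samples. Genotype took up 14.2% of the summed variance of these genes, and 1 of the 7 degrees of freedom among 8 samples is 14.3%. Replicate number took up 58.6% of it on 42.9% of the degrees of freedom, and the remaining 42.9% held 27.2%.

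**Figure D3:**
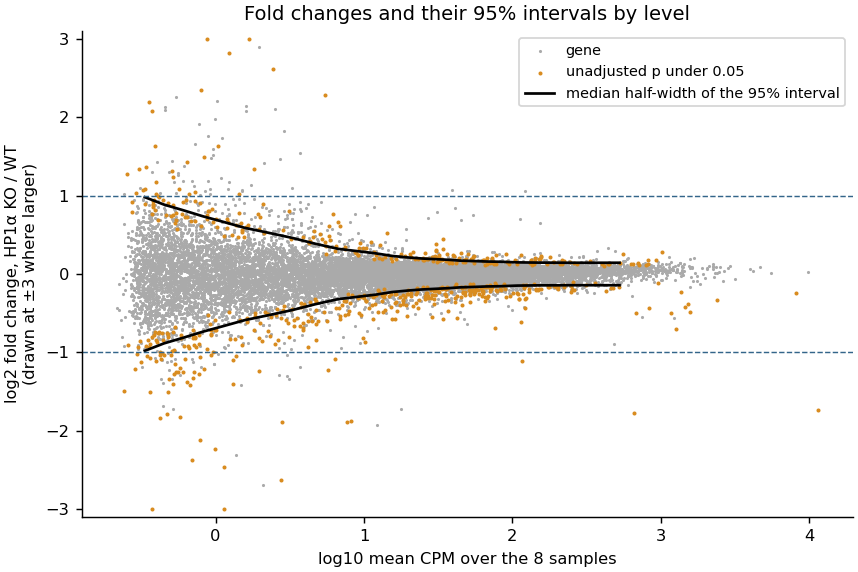
Log2 fold change of HP1α KO over WT (vertical axis, drawn at ±3 where larger) against the log10 of mean CPM (horizontal axis) for 14881 genes, with the 635 genes of unadjusted p under 0.05 in orange, the median half-width of the 95% interval as black lines and a 2-fold change as dashed lines. The half-width narrows from near 1 at the lowest levels to a median of 0.14 at 100 CPM or more.

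Individual genes at the tightest and the loosest ends show what these limits mean. Rac2, a small GTPase of blood cells, had among the narrowest intervals, from 1.38% lower to 11.8% higher in KO, and averaged 1605 ± 21.6 CPM in KO and 1528 ± 19 CPM in WT (SD, n = 4). Ppp1ca, a catalytic subunit of protein phosphatase 1, was bounded between 2.31% lower and 11.1% higher. Gpi1, the glycolytic glucose-6-phosphate isomerase, was bounded between 4.19% lower and 9.04% higher. Hspa1b, an inducible HSP70 chaperone, was among the widest, at 20.7, 40.3, 584 and 8.07 CPM in KO and 51.2, 24.9, 212 and 27.3 CPM in WT. KO 3 and WT 3 held the high values of Hspa1b, and the other 6 samples stayed at 51.2 CPM or less.

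Among genes at 10 to 100 CPM, the smallest p belonged to Plcb4, a phospholipase C that acts downstream of G-protein-coupled receptors. It stood at 13.3, 13.0, 12.6 and 13.1 CPM in KO and at 19.7, 19.99, 21.5 and 16 CPM in WT. The groups did not overlap, and the KO samples lay within 1 CPM of each other. The log2 fold change was -0.57 with a standard error of 0.09, with an adjusted p of 0.822 in edgeR and 0.00117 in DESeq2. Lilrb4b, an inhibitory receptor of the leukocyte immunoglobulin-like family, stood at 17.9 to 25.9 CPM in KO and 31.1 to 38.5 CPM in WT (log2 fold change -0.54, adjusted p 0.946 in edgeR and 0.0444 in DESeq2). Xlr4c, of the X-linked lymphocyte-regulated family, stood at 16.1 to 19.8 CPM in KO and 22.3 to 27.2 CPM in WT. Trpm6, a channel for magnesium, stood at 8.17 to 10.4 CPM in KO and 11.6 to 17.4 CPM in WT.

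On the higher side at this level, Ifitm10, of the interferon-induced transmembrane family, stood at 31.7, 35.9, 32.9 and 38.0 CPM in KO and at 27.5, 27.2, 27.6 and 23.8 CPM in WT. The KO samples were all above the WT samples, with a log2 fold change of 0.38, a standard error of 0.08 and an adjusted p of 0.946 in edgeR and 0.0444 in DESeq2. Eral1, a GTPase needed for the small subunit of the mitochondrial ribosome, averaged 19.3 ± 0.571 CPM in KO and 16.1 ± 0.303 CPM in WT (SD, n = 4). Zfp628, a zinc finger gene, averaged 83.7 ± 2.49 CPM in KO and 70.6 ± 5.00 CPM in WT. Gm20431 stood at 14.7 to 19.7 CPM in KO and 9.33 to 14.3 CPM in WT.

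At 100 CPM or more the smallest p belonged to Taf1d, a subunit of the complex that starts ribosomal RNA transcription. It stood at 104, 98.1, 96.0 and 93.8 CPM in KO and 118, 136, 117 and 120 CPM in WT. The groups did not overlap, and the interval ran from 27.6% to 11.9% lower in KO (adjusted p 0.946 in edgeR and 0.0139 in DESeq2). Ivns1abp, a protein first found to bind the influenza NS1 protein, was 14.8% lower, and Nap1l1, a histone chaperone, 12.6% lower. Cd6, a receptor that tunes T cell receptor signals, was 13.4% higher, with an interval from 4.45% to 23.1%. Lef1, a transcription factor of resting T cells, was 12.4% higher, Acp5, an acid phosphatase, 14.8% higher, and Fam189b 13.6% higher. The KO values of each of these 6 genes lay wholly to one side of the WT values, and the adjusted p in edgeR was 0.946.

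Between 1 and 10 CPM, Klhl4 stood at 0.770 to 1.14 CPM in KO and 1.34 to 2.31 CPM in WT (log2 fold change -1.05, interval -1.60 to -0.49). Setbp1, which binds the SET protein, averaged 7.68 ± 0.748 CPM in KO and 10.9 ± 1.79 CPM in WT (SD, n = 4). Gm14305 stood at 1.26 to 1.61 CPM in KO and 2.08 to 3.38 CPM in WT. Gm49378 was at 0 in KO 1, 2 and 3 and at 0.389 CPM in KO 4, against 0.967 to 3.45 CPM in WT, and DESeq2 gave it an adjusted p of 0.804. Gm49356 averaged 2.69 CPM in KO and 1.45 CPM in WT, Nlrc4, an inflammasome receptor, 2.47 and 1.49 CPM, Cacna1i, a T-type calcium channel, 3.41 and 2.33 CPM, and Arvcf, a catenin, 4.52 and 3.25 CPM. The 4 KO samples of each lay above the 4 WT samples, and none passed an adjusted p under 0.05 in edgeR or DESeq2.

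The Th1 genes examined overlapped between the groups. Of 21 Th1 genes 0 had an unadjusted p under 0.05, against 4.27% of all genes, and their median log2 fold change was 0.10, while that of all genes was 0.00. Ifng, the Th1 cytokine, stood at 143, 135, 116 and 114 CPM in KO and 159, 128, 122 and 134 CPM in WT. The groups overlapped, and the interval ran from 19.7% lower to 8.83% higher. Tbx21, which encodes T-bet, was bounded between 6.21% lower and 24.4% higher, and Tnf between 13.4% lower and 23.2% higher. The Th1 set that the study curated counted 71 tested genes, with a median of 0.04. At an unadjusted p under 0.05, 3 were higher and 0 lower (4.23%, against 4.27% of all genes). These were Socs3, a feedback inhibitor of cytokine signals (log2 fold change 0.26), Fasl, a ligand that triggers cell death (0.19), and Mmp9, a matrix protease (0.19).

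Several Th17 genes had wide intervals. Of 17 tested, 0 had an unadjusted p under 0.05 and 11 had an interval within 2-fold. In 1 of them, Il6ra, a receptor for IL-6 that was named after its values were seen, all KO samples (222.4 to 236.7 CPM) lay above all WT samples (207.3 to 221.9 CPM), with an interval from 2.50% lower to 12.9% higher. Il17a stood at 4.63, 6.97, 2.99 and 2.54 CPM in KO and 4.08, 1.35, 2.66 and 3.74 CPM in WT, and its interval, from 19.9% lower to 162% higher, left a 2-fold increase possible. Csf2, which encodes GM-CSF, averaged 0.783 ± 0.318 CPM in KO and 1.51 ± 0.828 CPM in WT (SD, n = 4), with overlapping groups and an unadjusted p of 0.0501 in edgeR. Il2, a growth factor of T cells, was bounded between 11.6% lower and 64.1% higher.

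Foxp3, Pdcd1 and Lag3 overlapped between groups. Foxp3, the regulator of Treg, stood at 88.9, 74.3, 102 and 130 CPM in KO and 78.8, 86.4, 107 and 109 CPM in WT. Its interval ran from 19.2% lower to 33.6% higher, and cells with Foxp3 among the sorted cells cannot be told apart in bulk RNA from more Foxp3 RNA per cell. Of 19 Treg genes 0 were higher and 1 lower at an unadjusted p under 0.05 (5.26%, against 4.27% of all genes). The lower one was Ikzf2 (Helios), which stood at 88.3 to 124 CPM in KO and 105 to 204 CPM in WT. WT 2 held the highest Ikzf2 value, and without that sample the log2 fold change moved from -0.43 to -0.19. Pdcd1 (PD-1) stood at 22.3 to 39.3 CPM in KO and 24.8 to 57.4 CPM in WT, and Lag3 at 25.2 to 44.6 CPM and 26.2 to 71.3 CPM, so that the range of WT enclosed most of the range of KO for both receptors. Of 30 genes of inhibitory receptors and exhaustion regulators, 1 was higher (Vsir, which encodes VISTA, log2 fold change 0.12) and 1 lower (Ikzf2). That is 6.67%, against 4.27% of all genes. The exhaustion set of the study had 94 tested genes, 1 higher (Fasl) and 4 lower (Setbp1, Car2, Casp4 and Ikzf2) at an unadjusted p under 0.05, and a median of -0.03. Together these are 5.32% of those tested. Setbp1 was the 1 gene of that set whose groups did not overlap.

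Genes of resting and of signalling T cells came next. Of 20 genes of quiescence and central memory, 19 had a positive log2 fold change, the median was 0.10, and 1 (Lef1) had an unadjusted p under 0.05. Their summed level was 8109, 8553, 8461 and 7826 CPM in KO 1 to 4 and 8104, 7385, 7438 and 7912 CPM in WT 1 to 4, with overlapping groups. Without KO 3 and WT 3, 14 of the 20 were positive and the median was 0.07. Of 27 genes of the T cell receptor complex and proximal signalling, 2 were higher (Cd6 and Cd5, both surface receptors that restrain signals) and 0 lower, and all 27 had an interval within 1.5-fold. The 2 are 7.41% of the list, against 4.27% of all genes. Of 31 genes of the early response to the T cell receptor 0 had an unadjusted p under 0.05 (median 0.08), and of 46 interferon-stimulated genes 0 did (median -0.05).

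**Figure D4:**
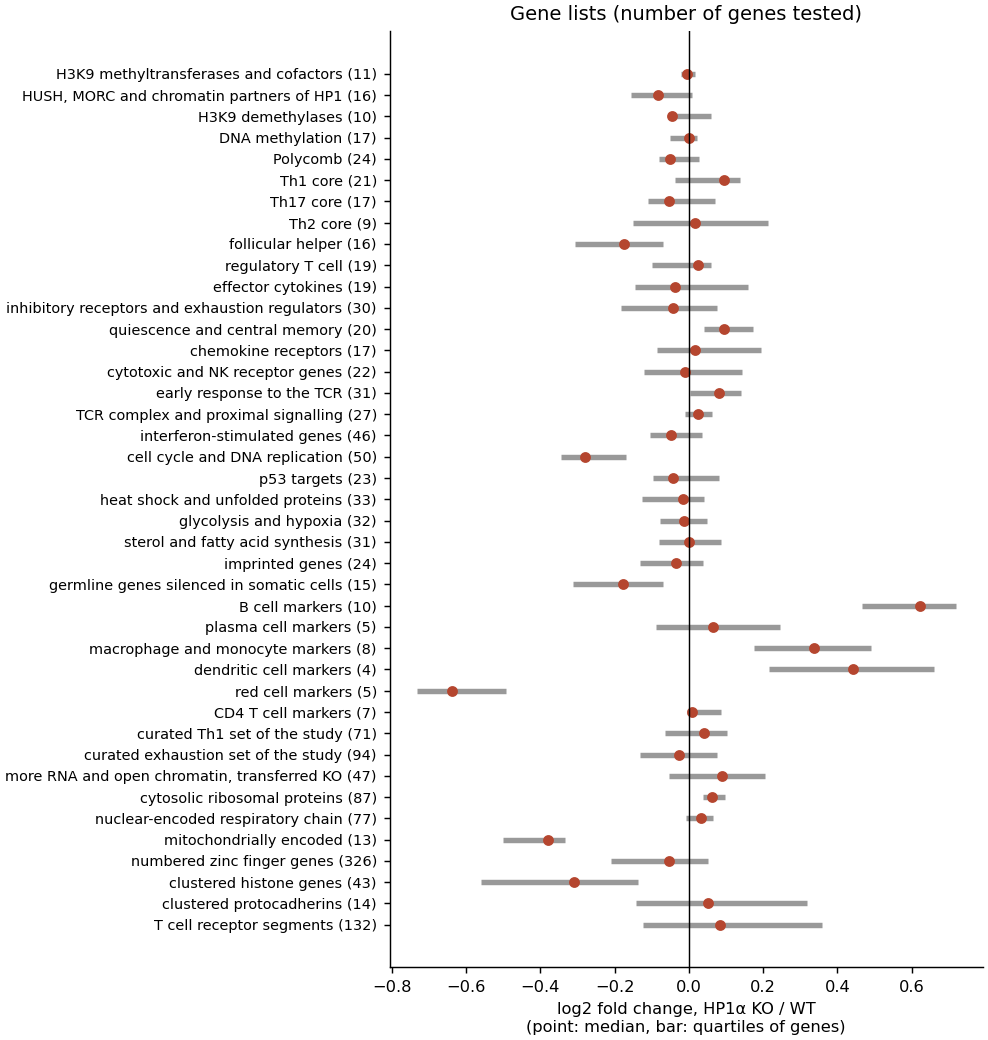
Median (point) and quartiles (bar) of the log2 fold change of HP1α KO over WT (horizontal axis) for 41 gene lists, with the number of genes tested in parentheses. The median of 32 lists lies within 0.1 of 0, and the mitochondrially encoded, cell cycle, histone and red cell genes lie lowest while the markers of B cells lie highest.

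The heterochromatin machinery was tightly bounded. Of 11 genes of H3K9 methyltransferases and cofactors, 10 H3K9 demethylases and 24 Polycomb genes, 0 had an unadjusted p under 0.05, and every one had an interval within 1.5-fold. Ehmt2 (G9a), which methylates H3K9, had a log2 fold change of 0.06 with an interval from -0.05 to 0.16. Among 16 HUSH, MORC and other chromatin partners of HP1, 1 was lower at such a p (6.25%, against 4.27% of all genes). It was Lrif1, a nuclear partner of HP1, at 15 to 18.7 CPM in KO and 18.3 to 30.4 CPM in WT. All 16 had an interval within 2-fold, and 14 within 1.5-fold. In 2 of the 16 all KO samples lay below all WT samples, against 1.47% of all genes. Of these, Smchd1 stood at 153.7 to 155.8 CPM in KO and 157.4 to 185.8 CPM in WT (unadjusted p 0.0925 in edgeR). Of 17 DNA methylation genes 1 was lower (5.88%), Zbtb33 (Kaiso), at 22.9 to 28.5 CPM in KO and 25.1 to 35.9 CPM in WT. The groups overlapped for Lrif1 and Zbtb33.

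Families of genes that heterochromatin keeps silent elsewhere were counted next. Of 64 germline genes that somatic cells silence, 15 passed the filter, 0 were higher and 2 lower at an unadjusted p under 0.05 (Xlr4a and Xlr3a, both X-linked), which is 13.3% of those tested against 4.27% of all genes. Of 326 numbered zinc finger genes tested, 3 were higher and 11 lower (4.29%), and the median of -0.05 became 0.02 without WT 2. Of 14 clustered protocadherins tested, 3 were higher and 0 lower (21.4%, against 1.67% of all genes higher). These were Pcdhgc3, Pcdhga5 and Pcdhga4, of which the last was outside the rule and named after its values were seen. Pcdhgc3 and Pcdhga5 overlap on the same strand of chromosome 18 and share their end. How reads were split between such genes was not tested, and these calls may not be separate events. Pcdhga5 stood at 0.415 to 0.770 CPM in KO and 0 to 0.407 CPM in WT. Pcdhgc3, a cell adhesion protein, had a log2 fold change of 0.36 with an interval from 0.14 to 0.59, and its KO samples at 14.1 to 15.3 CPM lay above the WT samples at 9.95 to 13.1 CPM. The summed level of the list, which holds Pcdhgc3, was 26.7 to 29.6 CPM in KO and 22.1 to 26.3 CPM in WT, without overlap. The summed level of the germline list went the other way, also without overlap. It was 92.2 to 94.0 CPM in KO and 101.5 to 109.9 CPM in WT. Of 24 imprinted genes 1 was higher (Peg13) and 0 lower (4.17%, against 4.27% of all genes). In 56748 genes, 2 had 3 or more counts in every KO sample and 0 in every WT sample (Igkv14-126 and an RNA without a symbol), and 1 the reverse (Gm10358). These 3 were named after their values were seen, and their highest count in a sample was 29.2.

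Mitochondrially encoded transcripts, the 13 subunits of the respiratory chain that the mitochondrial genome carries, had the same sign of difference with all 8 samples. All 13 had a negative log2 fold change, with a median of -0.38, and 9 had an unadjusted p under 0.05, all lower in KO. That is 69.2%, against 2.59% of all genes lower. Their summed level was 15690, 15760, 17880 and 15070 CPM in KO 1 to 4 and 16110, 23200, 22200 and 18740 CPM in WT 1 to 4. KO 3 lay above WT 1, so that the groups overlapped, and the highest values were those of WT 2 and WT 3. The transcript with the smallest p, mt-Nd4l, stood at 97.7, 66.9, 111 and 88.0 CPM in KO and 118, 161, 151 and 126 CPM in WT (log2 fold change -0.61, adjusted p 0.946 in edgeR). Without WT 2 the median was -0.32, 11 of 13 were negative, mt-Nd3 and mt-Nd6 turned positive (log2 fold change 0.10 and 0.04), and 5 of 13 had an unadjusted p under 0.05. Without KO 3 and WT 3 the median was -0.41 and 8 had such a p. With KO 3 and 4 alone against WT the median was -0.37 and 3 had such a p. With the robust fit 6 did.

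The 77 tested nuclear genes of the same respiratory chain did not share this direction. Their median was 0.03, and all 77 had an interval within 1.5-fold. Of them, 2 were higher (Ndufs7 and Ndufa6, both of complex I) and 0 lower (2.60%, against 4.27% of all genes). Ribosomal RNA that remained in the libraries varied between samples. Rn18s-rs5, an 18S ribosomal RNA sequence chosen after its values were seen, stood at 9099, 2393, 5441 and 4057 CPM in KO and 9474, 15203, 35428 and 9826 CPM in WT, with the highest values again in WT 2 and WT 3, and an adjusted p of 0.946 in edgeR. Lars2, the leucyl-tRNA synthetase of mitochondria, also chosen after its values were seen, stood at 435, 113, 464 and 184 CPM in KO and 481, 905, 2207 and 519 CPM in WT. Its groups did not overlap, WT 2 and WT 3 were highest, and the log2 fold change was -1.78 (interval -2.99 to -0.57, adjusted p 0.946 in edgeR and 0.931 in DESeq2). Lars2 and Rn18s-rs5 were among the leading genes at the same end of the second principal component. The mitochondrial mt-Rnr2 stood at 912, 727, 1684 and 629 CPM in KO and 893, 1442, 2624 and 852 CPM in WT, with overlapping groups and an unadjusted p of 0.186 in edgeR. Gm10925, annotated as a pseudogene, stood at 803 to 1071 CPM in KO and 1146 to 2051 CPM in WT (adjusted p 0.0139 in DESeq2). The part of ribosomal RNA and of these samples in the mitochondrial result and in the counts of Lars2 was not tested.

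Cell cycle genes had low values in KO as a group. All 50 genes of the cell cycle and DNA replication list had a negative log2 fold change, with a median of -0.28, and 4 (8%, against 2.59% of all genes lower) had an unadjusted p under 0.05. These were Mcm10, which helps to start replication (log2 fold change -0.60), E2f1, a transcription factor of the S phase (-0.31), Birc5, the mitotic protein survivin (-0.49), and Cdk2, a kinase of the S phase (-0.16). Birc5 and Cdk2 were named after their values were seen. The summed level was 1582, 1375, 1591 and 1765 CPM in KO 1 to 4 and 1749, 1911, 2095 and 1506 CPM in WT 1 to 4. WT 4 lay within the KO samples and KO 4 above WT 1, so that the groups overlapped. The 50 genes moved together between samples and are not 50 separate measurements. Without WT 4 the number at an unadjusted p under 0.05 was 25, without WT 3 it was 1, and without KO 2 it was 0. Without KO 3 and WT 3 the median was -0.16 and 46 of 50 were negative. Limma on log2(TPM + 1) left 46 of 50 negative.

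Clustered histone genes, which are transcribed in the S phase, had a median of -0.31 over 43 tested genes, with 0 higher and 3 lower at an unadjusted p under 0.05 (H2bc9, H4c14 and H3c11). That is 6.98%, against 2.59% of all genes lower. H2bc9 stood at 0.329, 0.355, 0.326 and 0.597 CPM in KO and 0.948, 1.12, 1.15 and 0.862 CPM in WT, without overlap. The summed level of the list overlapped, at 201 to 235 CPM in KO and 179 to 263 CPM in WT. Most histone mRNAs have no poly(A) tail and these libraries selected poly(A) RNA, so that the counts hold a part of them only. Without KO 3 and WT 3 the median was -0.15.

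**Figure D5:**
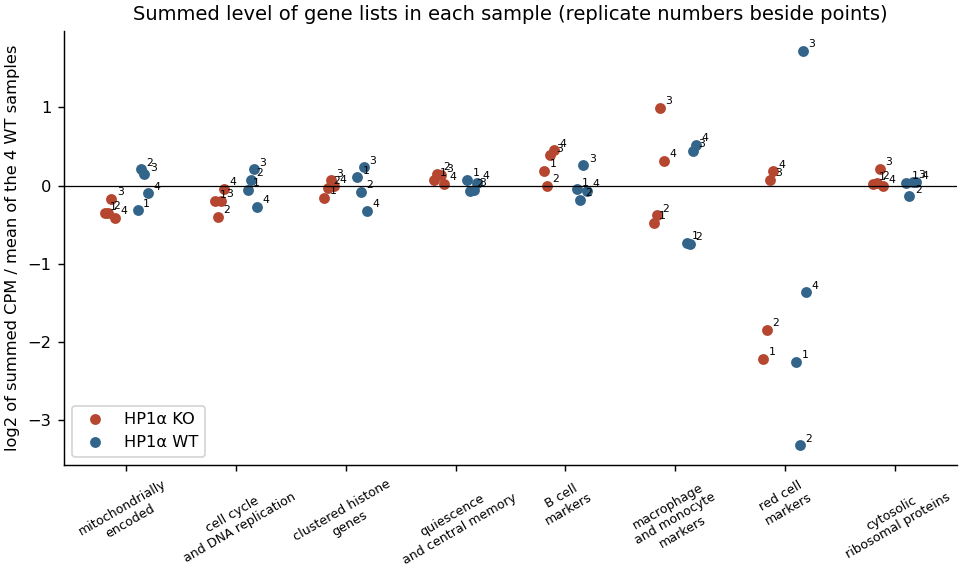
Log2 of the summed CPM of 8 gene lists in each sample over the mean of the 4 WT samples (vertical axis), with HP1α KO in red, WT in blue and the replicate number beside each point. Mitochondrially encoded sums lie low in KO 1, 2 and 4 and high in WT 2 and WT 3, and the red cell sums differ most between samples of the same group.

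Cytosolic ribosomal protein genes differed by little. Their median was 0.06 over 87 genes, 83 of them positive, and without KO 3 the median was 0.01. At an unadjusted p under 0.05, 0 were higher and 2 lower (2.30%, against 4.27% of all genes). The lower genes were Rpl22l1, at 52.8 to 56.6 CPM in KO and 58.4 to 75.7 CPM in WT, and Rps4l.

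Markers of other cells that a sort can carry were present, at levels that differed between lists and samples. All 10 markers of B cells had a positive log2 fold change (median 0.62), and 1, Cd79b, a part of the B cell receptor, had an unadjusted p under 0.05. That is 10%, against 4.27% of all genes. The number was 3 without KO 3 and WT 3, 6 with the replicate block and 7 with KO 3 and 4 alone against WT (median 1.00). With a sample left out it lay between 0 (without KO 4, for 1) and 5 (without WT 3). Their summed level was 68.9, 60.5, 79.4 and 83.0 CPM in KO and 58.6, 53.6, 72.5 and 57.7 CPM in WT, so that the groups overlapped. Immunoglobulin segments had a median of 0.67 over 59 tested, with 3 higher (Igkv8-19, Igkv8-27 and Ighv1-64) and 0 lower (5.08%, against 4.27% of all genes). Their sums were 619 to 1395 CPM in KO and 457 to 933 CPM in WT, with the highest in KO 3. All 8 markers of macrophages and monocytes were positive (median 0.34), with 0 at an unadjusted p under 0.05 and sums of 53.8 to 149 CPM in KO and 44.9 to 108 CPM in WT. The 2 markers of CD8 T cells, Cd8a and Cd8b1, summed to 16.1 CPM in KO 4 and to between 5.14 and 7.13 CPM in the other 7 samples. Red cell markers summed to 35.8, 46.2, 175 and 188 CPM in KO and 34.8, 16.6, 548 and 64.5 CPM in WT, and the median of -0.64 became 1.47 without WT 3. More cells of a type and more RNA per cell cannot be told apart in these bulk samples, and the part of these markers in other results was not tested.

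T cell receptor segments reflect which receptors the sorted cells carried. Of 132 tested, 8 were higher and 1 lower at an unadjusted p under 0.05 (6.82% together, against 4.27% of all genes). The median was 0.08. Trav9-2, a variable segment of the α chain, averaged 5.49 ± 0.321 CPM in KO and 3.75 ± 0.400 CPM in WT (SD, n = 4), and Trbv1, of the β chain, stood at 30.7 to 34.4 CPM and 26.5 to 28.8 CPM. Both were without overlap. Segments of a family share sequence, and how reads were split between near copies was not tested.

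The study also names 54 genes that gained RNA and open chromatin in HP1α KO cells that had been transferred into grafted mice together with Treg. In the memory cells here, 47 of these passed the filter, 3 were higher (Dtx1, Mmp9 and 1700030C10Rik) and 0 lower at an unadjusted p under 0.05, and the median was 0.09. That is 6.38% of those tested, against 4.27% of all genes. The study chose these genes in other cells. The symbol 1700030C10Rik belongs to 2 overlapping genes on the same strand, and how reads were split between them was not tested. The listed gene stood at 0.806 to 1.77 CPM in KO and 0 to 0.543 CPM in WT (adjusted p 0.946 in edgeR and 0.234 in DESeq2), and the other one stood at 7.42 to 10.8 CPM in KO and 0.865 to 4.15 CPM in WT (adjusted p 0.946 in edgeR and 0.0444 in DESeq2). WT 4 held the highest WT value of the latter, and without that sample edgeR gave it an adjusted p of 0.00506. Dtx1, a regulator of Notch signals linked to T cell anergy, stood at 1159, 1163, 1057 and 1045 CPM in KO and 948, 787, 831 and 1090 CPM in WT. KO 3 and KO 4 lay below WT 4, so that the groups overlapped. Mmp9 stood at 44.1 to 57.7 CPM in KO and 44.4 to 46.9 CPM in WT, with overlap.

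By position, the 80 genes at 10 CPM or more within 10 Mb of Cbx5 had 3 higher (Itgb7, Prr13 and Tuba1a, named after their values were seen) and 0 lower at an unadjusted p under 0.05, with a median of 0.02. That is 3.75%, against 3.81% of all autosomal genes at this level. In the first 10 Mb of the autosomes, next to the centromeric heterochromatin of mouse chromosomes, 454 genes had 8 higher and 8 lower, with a median of 0.01, and the median of all 8132 autosomal genes was 0.01 as well. On the X chromosome 0 of 245 genes were higher and 19 lower (7.76%, against 3.81% of autosomal genes at this level), with a median of -0.04. Limma on log2(TPM + 1) gave 5 higher and 4 lower there, with a median of -0.03, and without WT 2 edgeR gave 1 higher and 6 lower. By length, the 2101 shortest genes at 10 CPM or more had a median of 0.02 and the 2101 longest -0.01.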

How the data were processed

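RNA-Seq of sorted splenic memory CD4+ T cells was analysed in 8 samples, 4 HP1α KO and 4 WT, mapped to groups by the submitters' titles, and in 8 HP1γ samples for comparison. The reads were stranded poly(A) libraries, read as pairs of 150 bp. STAR alignment to GRCm39 and Salmon quantification were run by the authors within an nf-core pipeline, with Ensembl gene models. The deposited values are Salmon's estimated counts, not normalized and in part not whole, and TPM, from which depth cannot be read. The estimated counts were rounded and tested with edgeR 4.0.16 in R 4.3.3 (TMM, filterByExpr with a minimum count of 10, estimateDisp, glmQLFit, glmQLFTest, Benjamini-Hochberg adjustment over all genes tested) in a fit of the 8 samples without a block. Intervals of 95% use the standard error of the fit and its moderated degrees of freedom. The floor of 3 counts came to 7.58e-06% to 1.09e-05% of the total, and it covers counting error only. Positions were taken from GENCODE for GRCm39, in another release than the one used for counting.

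Gene lists were written from textbook knowledge or taken from the study's supplementary tables, and retired symbols were resolved through RefSeq synonyms. The comparison, the lists and the rule for named genes were chosen with earlier results of these data known. The rule took the 3 HP1 genes, the protein-coding genes with the smallest p in 3 classes of level (4 higher and 4 lower in each), 2 members of each list by p, a set of cytokines and T cell regulators, the genes that DESeq2 or a fit with a block called, and, among protein-coding genes at 10 CPM or more, those with the 3 narrowest and the 3 widest intervals. Genes that the study singles out in a plot of this comparison were left out of it. Any gene outside the rule was picked with its values in view. Some genes are not reported here. Alternatives were DESeq2 1.42.0, RLE size factors, no filter, a minimum of 10 counts per sample, 1 fit over all 16 samples, a block for the replicate number, robust dispersion, limma 3.58.1 on TPM (log2, pseudocount 1 or 0.1), genes other than antigen receptor segments, KO samples 3 and 4 alone against WT, the omission of each sample, and a limit of 1.5-fold. The omission of KO 3 and WT 3 together was chosen after seeing the data. The fits were tested on simulated data with known changes.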

Additional observations from a re-analysis of the deposited data

Results flagged for a closer look

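Among the reported genes and the summed levels of the gene lists, 258 groups of 4 samples were examined, and in 27 of them 1 sample lay farther from the rest than Dixon's 95% critical value. Chance flags about 1 in 20 groups, and the lists share genes and samples, so that these are not separate events.

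In KO 3, the level was 694 CPM for Socs3 (579 to 584 in the other KO samples), 584 CPM for Hspa1b (8.07 to 40.3), 302 CPM for Igkc (71.0 to 94.1), 825 CPM for the summed Th2 genes (715 to 734), 2186 CPM for the summed p53 targets (1839 to 1871) and 1395 CPM for the summed immunoglobulin segments (619 to 708). In KO 4, it was 10.7 CPM for Cd8b1 (5.69 to 6.19 in the others), 5.47 CPM for Cd8a (0.548 to 1.16), 16.1 CPM for their sum (6.32 to 7.13), 6.69 CPM for Cd79b (4.22 to 4.53), 0.597 CPM for H2bc9 (0.326 to 0.355), 5.97 CPM for Trav9-2 (5.27 to 5.39) and 0.389 CPM for Gm49378 (0 in the others). In KO 1, Arvcf stood at 4.85 CPM (4.38 to 4.44 in the others).

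In WT 2, the level was 136 CPM for Taf1d (117 to 120 in the other WT samples), 30.4 CPM for Lrif1 (18.3 to 19.4), 75.7 CPM for Rpl22l1 (58.4 to 59.0), 61.1 CPM for Ndufa6 (63.9 to 64.2), 65720 CPM for the summed cytosolic ribosomal proteins (74030 to 74540) and 2.90 CPM for the summed platelet markers (4.44 to 4.54). In WT 3, it was 212 CPM for Hspa1b (24.9 to 51.2), 548 CPM for the summed red cell markers (16.6 to 64.5), 207.3 CPM for Il6ra (220.1 to 221.9) and 11230 CPM for the summed numbered zinc finger genes (12330 to 12510). In WT 4, Ifitm10 stood at 23.8 CPM (27.2 to 27.6) and Xlr3a at 1.597 CPM (0.229 to 0.442). In WT 1, Igkv8-19 stood at 0.506 CPM (0.0319 to 0.0509).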

How the results depend on the processing

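The count of 0 genes at an adjusted p under 0.05 became 8 with DESeq2, and 1 with no filter, with the robust fit, with limma on log2(TPM + 1) or log2(TPM + 0.1), and without antigen receptor segments, where that gene was Gm10358 each time. It became 5 without KO 3 and WT 3 (Trav14n-2, Trav7n-6, Trav7d-6, Gm20236 and Gm37094, named after their values were seen) and lay between 0 and 3 with each sample left out, the 3 without WT 3. The 635 genes at an unadjusted p under 0.05 became 1063 with no filter, on 26997 genes, and between 377 (without WT 2) and 976 (without WT 4) with a sample left out. The 249 higher genes became 448 with no filter, 391 and 383 with limma on the 2 TPM scales, 419 with KO 3 and 4 alone against WT, and between 166 and 400 with a sample left out. The 386 lower genes became 615 with no filter and between 211 and 576 with a sample left out. The share of genes bounded within 2-fold became 45.8% with no filter and otherwise kept within 1.5 times of 84.2%. In the HP1γ line the 49 genes became 265 with DESeq2, and between 30 and 49 with a sample left out.

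The cause of these changes was not tested beyond the number of genes or samples that entered. Cbx5 kept its sign in all 20 alternatives, from -0.40 to -0.88. With a sample left out, the log2 fold change changed sign for Cbx1 (range -0.138 to 0.0141), Cd8a (-0.139 to 1.38, the lowest without KO 4), Tnf (-0.0447 to 0.144), Foxp3 (-0.104 to 0.169) and Hspa1b (-1.79 to 2.25, the lowest without KO 3). With KO 3 and 4 alone against WT it was -0.0698 for Tnf and -0.0881 for Il17a, and without KO 3 and WT 3 it was -0.0043 for Tnf and -0.59 for Hspa1b. Hspa1b was at -0.17 and -0.22 with limma on log2(TPM + 1) and log2(TPM + 0.1). Of 956 list medians under alternatives, 13 moved by more than the spread between samples.

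KO and WT samples share replicate numbers, and no source says that a number marks a litter or a day. The deviations of same-numbered samples from their group means correlated at 0.096, 0.24, 0.27 and 0.08 over all genes tested, and at 0.26, 0.39, 0.68 and -0.02 over the 8403 genes at 10 CPM or more. In neither set did every pair exceed 0.1, and in both KO 1 correlated best with WT 2, so that the numbers were not taken as a pairing. With the replicate block, 0 genes had an adjusted p under 0.05 and 1025 an unadjusted p under 0.05 (460 higher and 565 lower), and Hspa1b was at -0.12. The block took Cbx5 to -0.56 and 60 genes were called in the HP1γ line with it. Depth limits the genes under 1 CPM, where the median half-width of the interval was 0.85 on the log2 scale.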

Other observations

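Among lists not described above, p53 targets (23 tested), heat-shock and unfolded protein genes (33) and glycolysis and hypoxia genes (32) each had 0 genes at an unadjusted p under 0.05 in either direction, with medians of -0.04, -0.02 and -0.01. Sterol and fatty acid synthesis genes had 1 higher of 31 tested (Fads2, a fatty acid desaturase, log2 fold change 0.70, at 1.07 to 1.57 CPM in KO and 0.415 to 0.967 CPM in WT). That is 3.23%, against 4.27% of all genes. Follicular helper genes had a median of -0.17 over 16 tested with 0 at an unadjusted p under 0.05, and without WT 2 the median was -0.02. Cytotoxic and NK receptor genes had 1 higher of 22 (Fasl), or 4.55%, against 4.27% of all genes. Effector cytokines had 1 higher of 19 (Fasl), or 5.26%, and a median of -0.04, and Th2 genes had 0 of 9. Of 17 genes tested in the chemokine receptor list 0 had an unadjusted p under 0.05 (median 0.02). The summed level of the list was 1764 to 1912 CPM in KO and 1586 to 1725 CPM in WT, without overlap. The list also holds S1pr1 and Gpr183, which are not chemokine receptors. S1pr1 stood at 576 to 723 CPM in KO and 468 to 583 CPM in WT. Gpr183 stood at 123 to 167 CPM in KO and 118 to 137 CPM in WT. The sum without them was not taken.

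Markers of other cells that were not described above had 0 genes at an unadjusted p under 0.05 in plasma cells (5 tested), NK cells (2), dendritic cells (4), neutrophils (1), red cells (5) and platelets (2). Of the 7 markers of CD4 T cells 1 was higher (14.3%, against 4.27% of all genes). It was Trac, the constant region of the T cell receptor α chain, at 809 to 841 CPM in KO and 749 to 791 CPM in WT, without overlap. Of 1412 olfactory receptor genes 5 passed the filter, and 0 of these had an unadjusted p under 0.05.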
